A study of Mus musculus with 6 samples.

Results

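The cyclin-dependent kinase inhibitor genes comprise Cdkn2a, Cdkn2b, Cdkn2c, Cdkn2d, Cdkn1a, Cdkn1b, Cdkn1c and Cdkn3. These are 8 genes, beside 19938 genes with a probe set of their own on the arrays. Members were all probe sets whose platform annotation names one of these genes, and where a gene had several, the one of highest average was taken. Of the 8 genes, 7 are among those 19938. The only probe set naming Cdkn1a also names 4930567H12Rik, so that Cdkn1a is given separately as a shared probe set and is left out of the main count.

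The arrays compared Bmi1-overexpressing with empty vector neural stem/progenitor cells, to find genes regulated by BMI-1. Outbred CD1 mice aged 4 to 6 weeks gave cells of the lateral ventricle wall, which were grown as neurospheres, free-floating spheres that form in medium with EGF and FGF. For the Bmi1 overexpression group, 3 cultures received Bmi1 in the retroviral vector pCMMP, and for the control group, 3 cultures received the empty vector. In both groups transduced cells were sorted on eGFP and plated at clonal density (2000 cells per well), and 300 ng of total RNA was labelled for each Affymetrix Mouse Gene ST 1.0 array. The labels name Bmi1 without a tag, whereas the text of the study names Bmi1-FLAG for this experiment. The cultures are described as independent, but no source used here says that they came from separate mice, so p-values measure only the spread between these cultures. In a culture of mixed cells, fewer cells of a type and less RNA per cell cannot be told apart.

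CDK inhibitors hold back the kinases that drive the cell cycle. The INK4 proteins p16Ink4a, p15Ink4b, p18Ink4c and p19Ink4d bind Cdk4 and Cdk6 and keep cyclin D away from them, so that the retinoblastoma protein stays active and E2F factors stay silent. The Cip/Kip proteins p21Cip1, p27Kip1 and p57Kip2 bind assembled cyclin-CDK complexes, and Cdkn3 encodes KAP, a phosphatase that removes the activating phosphate of Cdk2. In neural stem cells, Cdkn2a is known as the classical target that Polycomb repressive complex 1, of which BMI-1 is a subunit, keeps silent, and its products p16Ink4a and p19Arf restrain self-renewal through the Rb and p53 pathways.

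Cdkn2a and its neighbour Cdkn2b lie on the minus strand of chromosome 4, and Cdkn2a has separate starts for its products. The starts are shown because the array results separate the neighbouring genes and cannot separate the products of Cdkn2a. Sequences were taken from RefSeq promoter windows of GRCm38.p6 (250 bases before to 50 after a start), which matched 7 of the 8 genes with 10 windows, and Cdkn1c had no entry. The upstream start of Cdkn2a, known as that of p19Arf, lies at chr4:89294570-89294869, the downstream start, known as that of p16Ink4a, at chr4:89282143-89282442 and the start of Cdkn2b at chr4:89310983-89311282, all 5′ to 3′ on the minus strand with CpG in capitals.
Cdkn2a upstream start: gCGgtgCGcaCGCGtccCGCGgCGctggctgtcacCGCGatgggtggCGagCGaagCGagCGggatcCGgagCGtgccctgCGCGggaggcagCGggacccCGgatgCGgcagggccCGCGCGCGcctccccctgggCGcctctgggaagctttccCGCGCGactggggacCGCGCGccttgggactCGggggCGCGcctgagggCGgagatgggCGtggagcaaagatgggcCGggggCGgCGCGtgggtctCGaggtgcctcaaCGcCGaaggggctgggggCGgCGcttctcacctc
Cdkn2a downstream start: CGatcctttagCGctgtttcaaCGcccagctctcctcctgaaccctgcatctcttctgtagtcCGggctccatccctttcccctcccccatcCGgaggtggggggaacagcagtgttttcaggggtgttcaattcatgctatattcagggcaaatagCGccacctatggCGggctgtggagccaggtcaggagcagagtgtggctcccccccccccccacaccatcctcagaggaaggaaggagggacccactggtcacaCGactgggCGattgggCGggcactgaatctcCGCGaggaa
Cdkn2b start: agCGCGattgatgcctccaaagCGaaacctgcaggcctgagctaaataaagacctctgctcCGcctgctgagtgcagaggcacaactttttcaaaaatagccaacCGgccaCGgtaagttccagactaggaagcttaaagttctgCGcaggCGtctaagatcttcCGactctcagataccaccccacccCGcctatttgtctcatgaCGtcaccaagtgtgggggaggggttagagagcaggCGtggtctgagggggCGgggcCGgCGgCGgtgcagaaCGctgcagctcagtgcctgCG
The upstream Cdkn2a window held 45 CpG with an observed over expected ratio of 1.04, at percentile 95.9 of 32851 mouse windows, and a GC content of 77.0%. The downstream window, 12427 bases away, held 12 CpG with a ratio of 0.44, near the median ratio of 0.38 over all windows. The Cdkn2b window, whose start lies 16413 bases before the upstream Cdkn2a start, held 18 CpG with a ratio of 0.72. The E2F words TTTCCCGC or TTTGGCGC, searched on both strands, were found in 1.56% of all windows and among the members only in the upstream Cdkn2a window, where TTTCCCGC lies at positions -99 to -92 from the start. The GC box GGGCGG, searched on both strands and found in 35.7% of all windows, occurred 3 times in the upstream Cdkn2a window and once each in the downstream window and at Cdkn2b.

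Cdkn1a, on the plus strand of chromosome 17, has 2 starts 2790 bases apart, and its upstream window is shown for a p53 response element, the kind of sequence through which p53 is known to switch on p21Cip1. The window at chr17:29090729-29091028 is given 5′ to 3′ on the plus strand, with the element in capitals.
Cdkn1a upstream start: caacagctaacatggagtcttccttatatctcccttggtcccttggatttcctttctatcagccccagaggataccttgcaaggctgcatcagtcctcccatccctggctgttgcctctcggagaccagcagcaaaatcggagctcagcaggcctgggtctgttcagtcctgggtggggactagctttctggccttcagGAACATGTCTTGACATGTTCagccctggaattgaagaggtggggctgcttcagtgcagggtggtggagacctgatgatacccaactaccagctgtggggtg
The element lies at chr17:29090928-29090947, at positions -51 to -32 from the upstream start and 2822 bases before the downstream start. It was searched as 2 adjacent half-sites of 10 bases with at most 1 mismatch to the p53 consensus, a rule set after this sequence had been read, and 0.067% of all windows held a match. The same window held 2 CpG, a ratio of 0.089, whereas the window of the downstream start held 23, a ratio of 0.79. Of the 10 windows of the CDK inhibitor genes, the highest ratios were those of Cdkn1b and of the upstream Cdkn2a start, both 1.04. The E-box CACGTG, present in 7.15% of all windows, was found among the members only in the downstream window of Cdkn2c. These matches describe the letters of the windows and say nothing of binding in these cells.

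**Figure D1:**
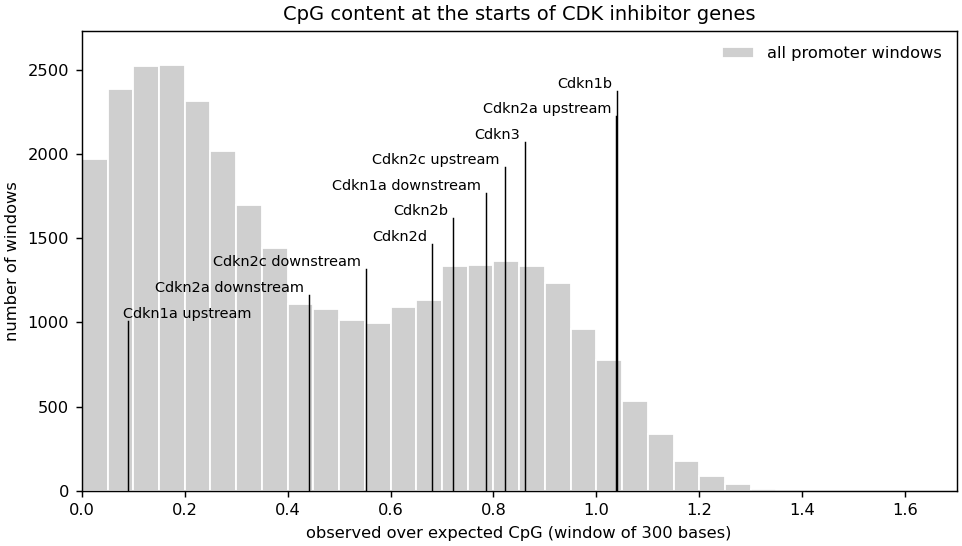
Observed over expected CpG in windows of 300 bases around transcription starts, on the x axis, against the number of mouse RefSeq windows, on the y axis. Grey bars count all 32851 windows, and each black line marks a window of a CDK inhibitor gene, its height serving only to place the name. Among the windows of CDK inhibitor genes, the upstream start of Cdkn1a (0.089) had the lowest ratio. Cdkn1b and the upstream start of Cdkn2a (both 1.04) had the highest.

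Expression values were RMA values on the log2 scale, so that a difference of 1 is a change of 2-fold, and all differences are Bmi1 overexpression minus empty vector. Of the 7 genes with their own probe set, 1 fell (Cdkn2a), 1 rose (Cdkn1c) and 5 were not called (limma, Benjamini-Hochberg adjusted p under 0.05 over all 35557 probe sets). The background was 5.7% of probe sets called, 3.46% lower and 2.23% higher. The groups did not overlap for 5 of the 7, with 1 lower and 4 higher, where 26.6% of all probe sets did not overlap. The median difference of the 7 was 0.24, beside 0.02 over all probe sets. Counting the shared probe set of Cdkn1a, 2 of 8 fell and the median was 0.17. The count of 2 calls was not stable: it was 1 whenever any 1 array was left out. It was 5 when probe sets with a mean under 5 were removed, where 3424 of the 15149 probe sets left were called. All members had a mean over 5, whereas the background shares above also count dimmer probe sets.

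**Figure D2:**
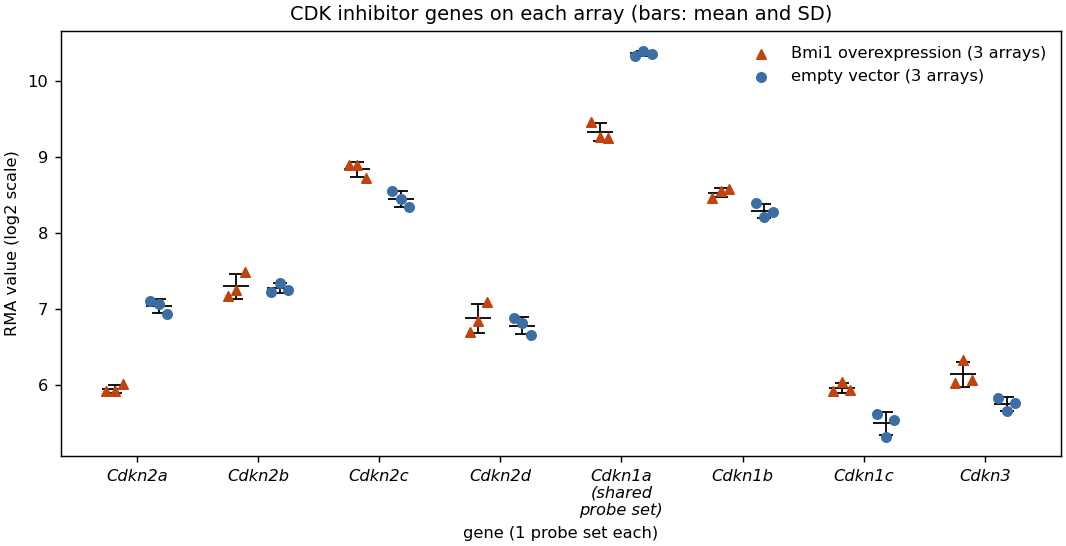
RMA values on the log2 scale (y axis) of the CDK inhibitor genes (x axis, 1 probe set each), with Bmi1 overexpression as triangles and empty vector as circles, 3 arrays each, and bars for mean and SD. The Bmi1 arrays lie below the empty vector arrays for Cdkn2a and for the shared probe set of Cdkn1a, overlap with them for Cdkn2b and Cdkn2d, and lie above them for the other 4 genes. Heights of different genes are not comparable.

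Among the INK4 genes, Cdkn2a was the only one to fall. Its probe set had values of 5.92, 5.92 and 6.01 in Bmi1-overexpressing cultures, against 7.11, 7.06 and 6.93 in empty vector cultures. All 3 Bmi1 arrays were low and lay close together, and the groups did not overlap. Means were 5.95 ± 0.05 in Bmi1-overexpressing and 7.04 ± 0.09 in empty vector cultures (SD, n = 3 each), a log2 difference of -1.08 (95% confidence interval -1.27 to -0.90), 2.12-fold lower, with an adjusted p of 0.001204 in limma. The difference ranked 302 from the most negative of 35557 probe sets. Cdkn2a passed in each of the 17 alternative analyses run for it. The annotation of the probe set lists the RefSeq transcripts of both products, so p16Ink4a and p19Arf were not measured apart. Cdkn2a is among the genes that the study selected as lower on these same arrays, and its fall here is not independent evidence.

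Cdkn2b, the gene of p15Ink4b next to Cdkn2a, had values of 7.17, 7.25 and 7.48 in Bmi1-overexpressing cultures, against 7.22, 7.35 and 7.25 in empty vector cultures. The groups overlapped, with Bmi1 replicate 3 the highest and Bmi1 replicate 1 the lowest of all arrays. The difference was 0.03 (95% confidence interval -0.21 to 0.27, limma adjusted p = 0.913), an interval that excludes a fall of the size seen for Cdkn2a.

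The changes of the neighbouring INK4 genes were compared within each array. Cdkn2a minus Cdkn2b was -1.25, -1.32 and -1.47 in Bmi1-overexpressing cultures, against -0.11, -0.28 and -0.31 in empty vector cultures. The groups did not overlap, and the mean difference was -1.11 in the exact two-sided permutation test (p = 0.1, the smallest that 3 against 3 arrays can give). The test was run for 2 gene pairs, and the Benjamini-Hochberg adjusted p was 0.1 for each in this exact test.

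Cdkn2c, the gene of p18Ink4c, had values of 8.89, 8.90 and 8.72 in Bmi1-overexpressing cultures, against 8.55, 8.44 and 8.34 in empty vector cultures. Every Bmi1 array lay above every empty vector array. The difference was 0.39 (95% confidence interval 0.18 to 0.60) with a limma adjusted p of 0.0594, which missed the threshold. It passed in 6 of 17 alternatives, with adjusted p-values between 0.00713 and 0.171 over all 17.

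Cdkn2d, the gene of p19Ink4d (a protein unrelated to p19Arf), had values of 6.70, 6.84 and 7.09 in Bmi1-overexpressing cultures, against 6.87, 6.81 and 6.65 in empty vector cultures. The groups overlapped, and Bmi1 replicate 3 was the highest array for this gene as for Cdkn2b. The difference was 0.09 (95% confidence interval -0.19 to 0.38, limma adjusted p = 0.733). The SD of Cdkn2d in Bmi1-overexpressing cultures, 0.20, was the largest among the members in either group. Without Bmi1 replicate 3 the difference was -0.011 for Cdkn2d and -0.063 for Cdkn2b.

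Of the Cip/Kip genes, the shared probe set of Cdkn1a fell and Cdkn1c rose, whereas Cdkn1b was not called. The Cdkn1a probe set had values of 9.46, 9.26 and 9.25 in Bmi1-overexpressing cultures, against 10.33, 10.40 and 10.36 in empty vector cultures. The empty vector arrays lay close together, all above the Bmi1 arrays. Means were 9.32 ± 0.12 in Bmi1-overexpressing and 10.36 ± 0.03 in empty vector cultures (SD, n = 3 each), a log2 difference of -1.04 (95% confidence interval -1.24 to -0.84), 2.06-fold lower, with a limma adjusted p of 0.00188. The probe set lists 9 accessions, and both of its RefSeq ones are Cdkn1a transcripts, while the RefSeq table places 4930567H12Rik on chromosome 8. What share of the signal belongs to Cdkn1a was not tested. Cdkn1a, too, is among the genes that the study selected as lower on these same arrays. Of 16 alternatives the call was lost in the methods' t-test with unequal variances (adjusted p of 0.104 over all probe sets), and it held in the other 15.

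Cdkn1b, the gene of p27Kip1, had values of 8.46, 8.55 and 8.58 in Bmi1-overexpressing cultures, against 8.39, 8.21 and 8.27 in empty vector cultures. The Bmi1 arrays all lay above the empty vector arrays by a small margin. The difference was 0.24 (95% confidence interval 0.05 to 0.43, limma adjusted p = 0.151). A second probe set of Cdkn1b had values of 7.07, 7.18 and 7.27 in Bmi1-overexpressing cultures, against 7.01, 6.68 and 6.77 in empty vector cultures. It ran the same way without overlap (0.35, limma adjusted p = 0.137).

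Within arrays, the shared Cdkn1a probe set minus Cdkn1b was 1.00, 0.71 and 0.67 in Bmi1-overexpressing cultures, against 1.94, 2.19 and 2.09 in empty vector cultures. The gap between these probe sets was smaller on every Bmi1 array. The mean difference was -1.28 (exact two-sided permutation p = 0.1, again the smallest possible).

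Cdkn1c, the imprinted gene of p57Kip2, had values of 5.92, 6.04 and 5.93 in Bmi1-overexpressing cultures, against 5.62, 5.32 and 5.54 in empty vector cultures. The groups did not overlap, and the Bmi1 arrays were the higher ones. Means were 5.96 ± 0.07 in Bmi1-overexpressing and 5.49 ± 0.16 in empty vector cultures (SD, n = 3 each), a log2 difference of 0.47 (95% confidence interval 0.23 to 0.70), 1.38-fold higher, with a limma adjusted p of 0.0476. This call lay just inside the threshold and was lost in 10 of 16 alternatives, including each of the 6 analyses that left out 1 array (limma adjusted p 0.0661 to 0.140).

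Cdkn3, the gene of the phosphatase KAP, had values of 6.02, 6.33 and 6.06 in Bmi1-overexpressing cultures, against 5.82, 5.65 and 5.77 in empty vector cultures. All Bmi1 arrays lay above the empty vector arrays, Bmi1 replicate 2 farthest. The difference was 0.39 (95% confidence interval 0.14 to 0.64, limma adjusted p = 0.0990).

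In the order of their differences, Cdkn2a (-1.08) and the shared Cdkn1a probe set (-1.04) stood at the low end and did not differ beyond their intervals. Then came Cdkn2b (0.03), Cdkn2d (0.09), Cdkn1b (0.24), Cdkn3 (0.39), Cdkn2c (0.39) and Cdkn1c (0.47), each with an interval that overlapped those of its neighbours in this order. No interval of these 6 genes reached those of Cdkn2a or Cdkn1a.

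**Figure D3:**
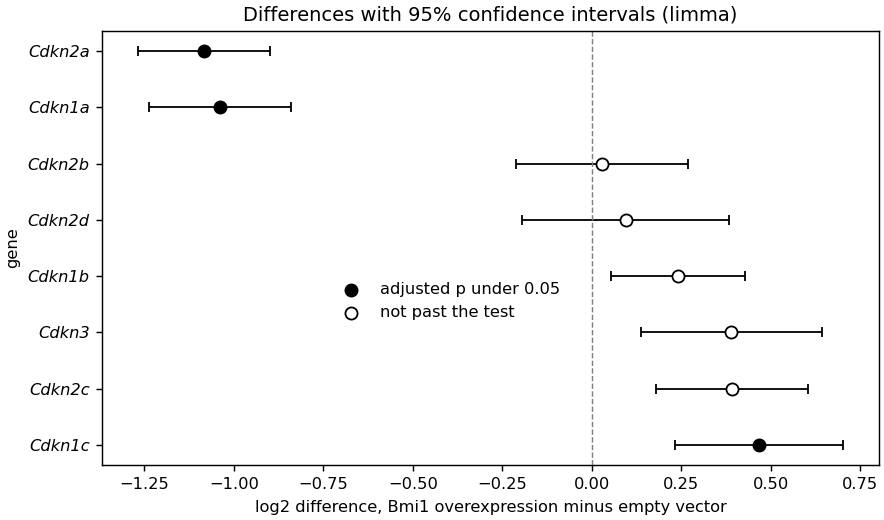
Log2 difference of each CDK inhibitor gene, Bmi1 overexpression minus empty vector (x axis), with 95% confidence intervals from limma, for 3 arrays per group. Filled points passed at an adjusted p under 0.05. Cdkn2a and the shared Cdkn1a probe set lie near -1, and the other 6 genes lie between 0.03 and 0.47.

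The Bmi1 probe set itself did not separate the groups. It had values of 9.18, 8.36 and 8.42 in Bmi1-overexpressing cultures, against 7.70, 8.40 and 8.31 in empty vector cultures. Bmi1 replicate 1 was high and empty vector replicate 1 low, and the other 4 arrays overlapped. The difference was 0.52 (95% confidence interval -0.16 to 1.19, limma adjusted p = 0.380). Whether the probes of this set lie in the part of the transcript carried by the vector was not tested. For all 6 arrays 1 label, the source name, gives the other group. Groups followed the titles, which the transduction and genotype labels match, and the study's headings for the arrays, joined through the array names in the labels, group them as the titles do. Array medians lay between 4.37 and 4.45, and correlations were 0.991 to 0.993 within groups and 0.985 to 0.987 between them.

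Marker lists of the labelled cell type and of other types were compared between the groups. Of 8 markers of neural stem and progenitor cells 7 were measured and 0 passed in limma, 0 also in the methods' t-test after adjustment, while 3 had an unadjusted limma p under 0.05, all higher in Bmi1-overexpressing cultures. Their mean was 9.66 to 9.73 over Bmi1 arrays and 9.62 to 9.67 over empty vector arrays. The mean of 6 microglial markers was 3.37 to 3.42 over Bmi1 arrays and 3.27 to 3.38 over empty vector arrays, and that of 6 endothelial markers was 4.14 to 4.19 over Bmi1 arrays and 4.06 to 4.10 over empty vector arrays. In either list 0 genes passed in limma or in the methods' t-test after adjustment, and at an unadjusted limma p under 0.05 there were 0 microglial genes and 1 endothelial gene. Of 6 astrocyte markers Aqp4 rose by 1.06 in limma and 5 were not called, with 4 of the 6 positive. Among those not called were Slc1a2 (0.55), S100b (-0.38) and Slc1a3 (-0.31). Of 6 oligodendrocyte markers 5 were measured, and 0 of these and 0 of 6 ependymal markers passed in limma. At an unadjusted limma p under 0.05 there were 1 oligodendrocyte gene (higher) and 1 ependymal gene (lower). Of 6 neuronal markers Dcx rose by 0.55 and Map2 fell by 0.47, and 4 of the 6 were negative. Dcx was dim, with a mean of 3.52 in Bmi1-overexpressing and 2.98 in empty vector cultures, under the array medians. The largest difference of the list, that of Tubb3 (0.89), was not called (limma adjusted p = 0.0942). Of 6 pericyte and fibroblast markers Acta2 fell by 1.34 and 5 were not called, with 4 of the 6 positive, the highest being Cspg4 (0.38). In the methods' t-test after adjustment 0 astrocyte markers and 0 pericyte and fibroblast markers passed. In that test 1 neuronal marker was lower and 1 higher. The share of all probe sets at an unadjusted limma p under 0.05 is not given. Counts at that threshold, here and below, therefore only describe the lists. The part of these cell types in the results of the CDK inhibitor genes was not tested.

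The genes beside Cdkn2a and Cdkn1a did not share their fall. On either side of Cdkn2a, the nearest measured genes were Cdkn2b and Mtap, which encodes an enzyme of methionine salvage. Mtap averaged 7.82 in Bmi1-overexpressing and 7.90 in empty vector cultures, a difference of -0.08 (95% confidence interval -0.24 to 0.08, limma adjusted p = 0.579). Beside Cdkn1a, Srsf3, a splicing factor gene, differed by 0.16 (limma adjusted p = 0.248) and Rab44 by 0.09 (limma adjusted p = 0.665).

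Cdkn1c lies in the imprinted Kcnq1 domain of chromosome 7, where a long noncoding RNA is known to silence genes on the paternal copy. Its nearest measured neighbours were Kcnq1, which differed by -0.04 (limma adjusted p = 0.898), and Slc22a18, which differed by 0.15 (limma adjusted p = 0.618). Of 11 listed genes of the domain 10 were measured, 3 fell and 0 rose by limma (1 higher at an unadjusted p under 0.05, and 0 higher in the methods' t-test after adjustment), at a median difference of 0.00. Tssc4, the third measured gene on one side of Cdkn1c, had values of 6.71, 6.91 and 6.67 in Bmi1-overexpressing cultures, against 7.98, 7.90 and 7.91 in empty vector cultures. It thus lay lower on every Bmi1 array, opposite to Cdkn1c, with a difference of -1.16 (limma adjusted p = 0.00135). Cd81, a tetraspanin gene, fell by 0.73 and Osbpl5, a lipid transfer protein gene, fell by 0.49. The call of Osbpl5 was lost without empty vector replicate 1 (limma adjusted p = 0.0503), without empty vector replicate 2 (0.0569) and with the replicate block (0.0662). Those of Tssc4 and Cd81 were lost in the methods' t-test with unequal variances, with adjusted p-values of 0.0938 and 0.136 over all probe sets. Tssc4 is also among the genes that the study selected on these arrays.

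**Figure D4:**
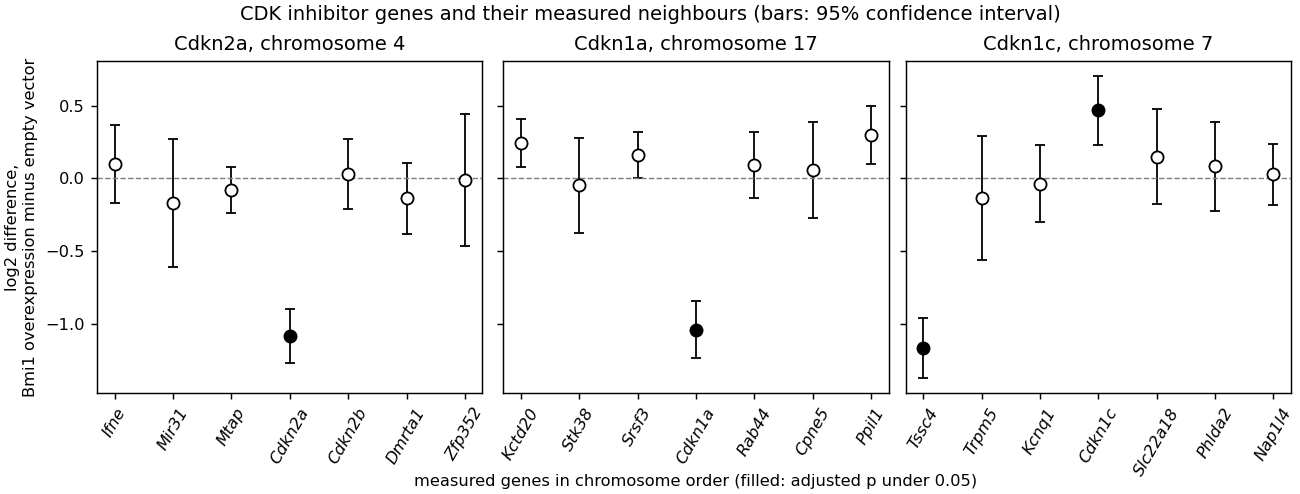
Log2 difference, Bmi1 overexpression minus empty vector (y axis), of Cdkn2a, Cdkn1a and Cdkn1c (centre of each panel) and of 3 measured genes on either side in chromosome order (x axis), with 95% confidence intervals. Filled points passed at an adjusted p under 0.05. Besides the CDK inhibitor genes, the filled point is Tssc4 at -1.16.

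The genes that CDK inhibitors act on or are controlled by were counted together with those of the imprinted domain around Cdkn1c. Of 80 listed genes 77 were measured, of which 6 fell, 8 rose and 63 were not called by limma. Genes of the domain made up 10 of the 77 and 3 of the 6 that fell. These limma counts stand beside the background of 3.46% lower and 2.23% higher, which also counts dimmer probe sets. In the methods' t-test after adjustment 7 fell and 4 rose. The median difference was 0.05. When probe sets with a mean under 5 were removed, 3424 of the 15149 left were called in limma, among them 24 of the listed genes.

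Of 5 genes of cyclin D and its kinases, the partners blocked by INK4 proteins, 1 fell and 1 rose. Ccnd1 (cyclin D1) had values of 10.55, 10.48 and 10.45 in Bmi1-overexpressing cultures, against 10.85, 10.97 and 10.99 in empty vector cultures, a difference of -0.44 (limma adjusted p = 0.0197). Cdk6 had values of 6.79, 6.44 and 6.58 in Bmi1-overexpressing cultures, against 6.01, 5.89 and 5.94 in empty vector cultures, a difference of 0.65 (limma adjusted p = 0.0195). Cyclin D1 was thus low and its kinase partner high on all Bmi1 arrays. Of 7 measured genes of cyclins E, A and B with Cdk1 and Cdk2, only Ccna2 (cyclin A2) rose, by 0.45 (limma adjusted p = 0.0176). Of 8 enzymes that switch CDKs on or off, the phosphatase genes Cdc25b (0.45) and Cdc25c (0.61) rose, with limma adjusted p-values of 0.0303 and 0.0308 in this order.

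Of 13 genes of the Rb and E2F families, 3 rose and 0 fell by limma, where 1 was lower at an unadjusted p under 0.05. In the methods' t-test after adjustment 1 rose and 0 fell. The median difference was 0.17. E2f7 and E2f8, the atypical repressor E2Fs, each rose by 0.49 (limma adjusted p 0.0218 for E2f7 and 0.0367 for E2f8). Rbl1, the gene of the pocket protein p107, rose by 0.31 (limma adjusted p = 0.0441). Rb1 differed by 0.07 (limma adjusted p = 0.773). When 1 array was left out, the calls of Ccnd1, Ccna2, Cdc25b, Cdc25c, E2f7 and E2f8 were lost in 5 of 6 cases, that of Cdk6 in 4 and that of Rbl1 in 6. In the methods' t-test the calls of Cdk6 (adjusted p of 0.0696), Cdc25b (0.0632), Cdc25c (0.0927), E2f7 (0.0540) and E2f8 (0.0884) were lost. Those of Ccnd1, Ccna2 and Rbl1 held in that test.

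In the Arf and p53 axis, 5 of 6 listed genes were measured, Trp53 having no probe set of its own, and 1 fell. Mdm2, the p53 ubiquitin ligase that p19Arf binds and that p53 is known to induce, had values of 7.35, 7.28 and 7.22 in Bmi1-overexpressing cultures, against 7.89, 7.81 and 7.85 in empty vector cultures. It was lower on every Bmi1 array, with a difference of -0.57 (95% confidence interval -0.73 to -0.40, limma adjusted p = 0.00723). The call held when each array was left out in turn and was lost with the replicate block (limma adjusted p = 0.0504) and in the methods' t-test with unequal variances (adjusted p of 0.0641). Of 15 genes for the ubiquitin-mediated turnover of Cip/Kip proteins 0 passed in limma, where 2 had an unadjusted p under 0.05, and 1 passed in the methods' t-test after adjustment. Skp2, the F-box protein that marks p27Kip1 for degradation, differed by 0.11 (limma adjusted p = 0.668).

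Of 14 genes of transcription factors known to act on these promoters, 1 rose and 1 fell. Mycn, a MYC family factor that drives proliferation of neural progenitors, had values of 5.98, 5.87 and 6.20 in Bmi1-overexpressing cultures, against 4.91, 4.98 and 4.87 in empty vector cultures. The groups lay well apart, with a difference of 1.09 (limma adjusted p = 0.00287). Id1, a helix-loop-helix inhibitor known to repress Cdkn2a, fell by 0.62 (limma adjusted p = 0.00801). In the methods' t-test with unequal variances neither call held (adjusted p of 0.121 for Mycn and 0.0931 for Id1). Ets1, known as an activator of p16Ink4a, differed by -0.40 and missed the threshold with a limma adjusted p of 0.05003. Mycn is also among the genes that the study selected on these arrays.

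**Figure D5:**
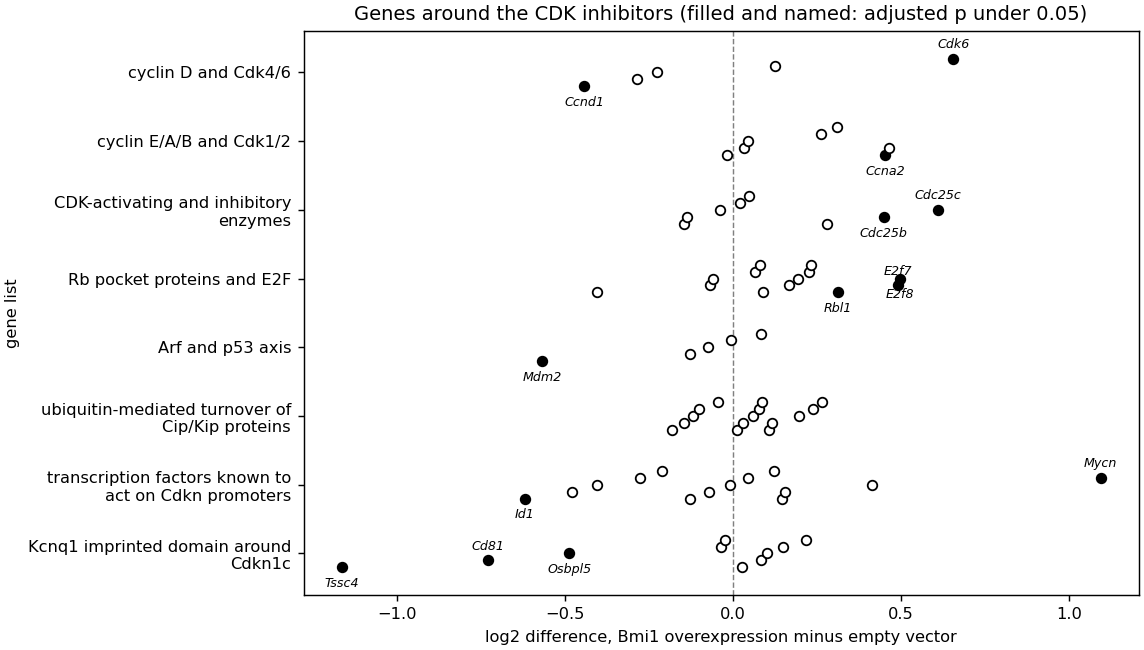
Log2 difference, Bmi1 overexpression minus empty vector (x axis), of 77 measured genes in 8 lists around the CDK inhibitors (y axis), 1 point per gene, with the vertical offset inside a list serving only to separate points. Filled and named points passed at an adjusted p under 0.05 (limma). Mycn at 1.09 and Tssc4 at -1.16 lie farthest out.

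Over the 6 arrays and 19938 genes, those whose values ran most like Cdkn2a were Mtpn (Pearson r = 0.999), Skap2 (0.999) and Hdac7 (0.998). Skap2, a src kinase adaptor gene, averaged 5.82 in Bmi1-overexpressing and 7.48 in empty vector cultures. Most like the shared Cdkn1a probe set were Emc2, Ephx1 and Chst2 (0.998 each). All 6 genes fell in limma. With 6 arrays in 2 groups, any gene that separates the groups cleanly reaches a high correlation, and these values are a description.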

How the data were processed

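RNA of 6 neurosphere cultures, 3 with Bmi1 overexpression and 3 with empty vector, was hybridised to Mouse Gene ST 1.0 arrays of Affymetrix. The deposited log2 values were made by the authors with RMA, which corrects the background, equalises the distributions of the arrays and summarises the probes of a set. The submitters' processing notes name Affymetrix Expression Console, and no version of it is given in the sources used here. RMA compresses differences of dim probe sets. Precision is limited by the number of arrays.

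Names of probe sets came from the platform annotation (21789 with 1 gene, 1621 with several, 12147 unnamed). The main test was limma (version 3.58.1, R version 4.3.3), two-sided by lmFit and eBayes without a filter, with Benjamini-Hochberg adjustment over 35557 probe sets. Within-array differences were tested by exact permutation in scipy 1.17.1. The limma step was tested on simulated data. Members, lists and the naming rule were chosen with earlier results of these data known. Named were all members, in each list up to 4 called genes of smallest adjusted p or, with none called, its best known member, the nearest measured neighbours and the 3 most alike genes. Rb1, Ets1 and the markers given by name were named after their values were seen. The alternatives were the t-test of the methods, run with equal variances, Welch's t-test with unequal variances and a minimum mean of 5 or of 6. Further ones were analysis by gene, centring on the median, a further quantile normalization, other eBayes settings, array weights, a replicate block and each array left out.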

Additional observations from a re-analysis of the deposited data

How the results depend on the processing

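Cdkn2a passed in all 17 alternatives, with a log2 difference between -1.14 and -1.05 and adjusted p-values up to 0.0473, and the shared Cdkn1a probe set passed in 15 of 16. The count of CDK inhibitor genes called, 2 of 7, was 1 with the methods' t-test and with Welch's t-test, each adjusted over all probe sets. It was also 1 with median centring, with the replicate block and at the methods' own thresholds. It was 4 with 1 probe set per gene and 5 with a filter at a mean of 5. Leaving out 1 array gave between 1 and 1. Where this count was 1, the gene was Cdkn2a. Cdkn2b turned to -0.024 with median centring. When 1 array was left out, its difference ranged between -0.063 and 0.094, and that of Cdkn2d between -0.011 and 0.18.

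The number of probe sets called, 2025, was 1377 with the methods' t-test after adjustment and 210 with Welch's t-test. It was 3424 and 3193 with filters at a mean of 5 and 6, 3190 with an eBayes trend and 850 with the replicate block. At the methods' thresholds it was 300, and with 1 array left out it was 974 to 1275. The 2025 split into 794 higher and 1231 lower, and with median centring the split was 593 higher and 1467 lower. The 14 genes called in all lists around the CDK inhibitors became 11 with the methods' t-test after adjustment (4 higher, 7 lower) and 1 with Welch's t-test. They became 24 and 22 with filters at a mean of 5 and 6, 24 with an eBayes trend and 5 with the replicate block. At the methods' thresholds there were 2, and with 1 array left out there were 5 to 9. The causes of these shifts were not tested. Deviations of same-numbered arrays correlated at r between -0.03 and 0.00, so the values showed no pairing by replicate number. Whether same-numbered cultures shared a source cannot be read from these correlations. Why fewer calls remain with the replicate block was not tested either. With 3 arrays per group, a difference as small as that of Cdkn1b, 0.24, was not called, which does not show that it is absent.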
